A study of Mus musculus with 16 samples.

Results

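Interferon-stimulated genes are the genes whose transcription rises when a cell is exposed to interferon. A set of 48 of them, listed by name and located outside the triplicated segment of the Dp16 mouse, was followed through cortex RNA of 4 genotypes. The set was matched by gene symbol among 55385 genes of the count table, and all 48 were found. By coordinates on build GRCm38, 0 of the 48 lay in the segment, taken as chr16:75540514-97962622, from Lipi to Zbtb21. Rtp4, Parp9 and Parp14 are on chromosome 16 but nearer its centromere, and the others are spread over the remaining 15 of 16 chromosomes with a member, 11 of them on chromosome 11. The comparisons address whether extra copies of interferon receptor genes are accompanied by higher levels of the genes downstream of those receptors.

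Polyadenylated RNA was sequenced from brain cortex of 16 mice aged 5 months, 4 animals per genotype and 1 library per animal. The wild-type animals were C57BL/6J. Dp16 mice carry a duplication of a segment of mouse chromosome 16 that matches most of human chromosome 21, so that 3 copies of its genes are present in place of 2. In 5xFAD mice the Thy1 promoter drives, in neurons, human transgenes with mutations of familial Alzheimer disease, and 5xFAD-Dp16 mice carry both alterations. The labels give the strain of the wild-type animals only. Wild-type, Dp16 and 5xFAD groups held 2 males and 2 females each, whereas the 5xFAD-Dp16 animals were 4 males.

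Type I interferons bind a receptor built from the Ifnar1 and Ifnar2 products, and interferon gamma binds one built from Ifngr1 and Ifngr2. The receptors activate JAK kinases and STAT proteins. After type I signalling STAT proteins and Irf9 form a complex that binds the interferon-stimulated response element in promoters. After interferon gamma, pairs of STAT proteins bind the gamma-activated site. Their targets encode sensors of foreign RNA, enzymes and proteins that block viral replication, and further transcription factors such as Irf7. In brain, microglia, astrocytes, endothelium and neurons can all respond. Ifnar1, Ifnar2, Ifngr2 and Il10rb, a shared chain of the interleukin-10 and interferon lambda receptors, lie side by side in the triplicated segment, between Ifnar2 at chr16:91372783-91405589 and Ifngr2 at chr16:91547072-91565623.

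The promoters of the set were read first, for matches to the letters of the elements described above. RefSeq promoter windows on GRCm38.p6, each running from 250 bases before to 50 bases after a transcription start, were found for 37 of the 48 genes, in 46 windows. The core of the interferon-stimulated response element, read as GAAA, any 2 bases and GAAA on either strand, was present for 20 of those 37 genes (54.1%), against 3.99% of 27025 genes with a window. By window the shares were 47.8% and 3.44%. The gamma-activated site, TTCNNNGAA, a palindrome that was searched independently of the first motif, was present for 11 of 37 genes (29.7%) against 9.55% of all genes. A match is a description of the letters and was not tested as a binding site. The 250 bases before the start are printed for a ubiquitin-like protein gene with overlapping matches, for the neighbouring pair Ifit3 and Ifit3b, for Oas1a with its match next to the start, and for Slfn2, the gene of the set with the smallest p in Dp16, in whose window neither motif was found. Capitals mark the response element core, which reads as TTTC, any 2 bases and TTTC where it lies on the other strand:
Isg15, chr4:156200819-156201068, minus strand: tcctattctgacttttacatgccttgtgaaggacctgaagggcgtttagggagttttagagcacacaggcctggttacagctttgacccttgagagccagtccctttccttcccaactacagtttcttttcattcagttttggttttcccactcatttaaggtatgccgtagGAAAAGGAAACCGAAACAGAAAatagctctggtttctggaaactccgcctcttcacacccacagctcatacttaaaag
Ifit3, chr19:34583279-34583528, plus strand: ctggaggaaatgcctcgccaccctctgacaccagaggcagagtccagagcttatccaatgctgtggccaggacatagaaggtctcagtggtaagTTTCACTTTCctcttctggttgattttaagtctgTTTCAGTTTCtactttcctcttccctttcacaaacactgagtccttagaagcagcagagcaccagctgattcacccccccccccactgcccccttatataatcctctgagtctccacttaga
Ifit3b, chr19:34607707-34607956, plus strand: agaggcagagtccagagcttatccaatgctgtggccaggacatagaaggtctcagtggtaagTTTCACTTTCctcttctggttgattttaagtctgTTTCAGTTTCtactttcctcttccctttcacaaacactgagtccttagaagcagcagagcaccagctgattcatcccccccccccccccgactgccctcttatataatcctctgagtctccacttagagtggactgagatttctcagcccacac
Oas1a, chr5:120907526-120907775, minus strand: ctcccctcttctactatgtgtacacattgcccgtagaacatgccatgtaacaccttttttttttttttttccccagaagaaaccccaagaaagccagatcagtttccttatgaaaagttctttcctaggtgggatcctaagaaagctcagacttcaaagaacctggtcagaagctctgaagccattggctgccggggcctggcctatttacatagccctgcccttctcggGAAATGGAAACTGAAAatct
Slfn2, chr11:83064862-83065111, plus strand: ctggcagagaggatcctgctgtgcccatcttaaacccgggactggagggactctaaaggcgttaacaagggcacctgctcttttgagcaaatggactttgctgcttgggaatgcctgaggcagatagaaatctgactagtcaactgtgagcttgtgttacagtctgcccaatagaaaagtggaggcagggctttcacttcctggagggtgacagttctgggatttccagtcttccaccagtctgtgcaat
In Isg15 the matches begin 78, 72 and 66 bases before the start and overlap, forming a single run of capitals. In Oas1a they begin 20 and 14 bases before it. Ifit3 and Ifit3b hold the same 2 sites on the opposite strand, 156 and 122 bases before the start in Ifit3 and 188 and 154 in Ifit3b.

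Libraries held 12483286 to 20385010 counted reads. After a filter on low counts 17019 genes were tested, among them 45 of the 48. Zbp1, Oas1b and Oas2 did not pass the filter and are given by their levels alone. Levels below are in CPM, read counts scaled to a common library size, listed for animals 1 to 4 of a genotype, and differences are log2 differences from a model with an additive sex term, with the standard error (SE). Adjusted p-values are over all 17019 genes, with a threshold of 0.05. Cortical neuron markers were present in every library, at a summed 2380 to 6400 CPM for 6 excitatory neuron genes. In bulk tissue, fewer cells of a type and less RNA per cell cannot be told apart. Wild-type replicate 2 and 5xFAD replicate 3 had the lowest median correlation with the other libraries (0.967 and 0.956, against 0.974 to 0.984). Thinned to the same depth, the wild-type libraries held 18331 to 20263 detected genes, against 20065 to 21226 in the other 12.

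The genes of the set were mostly weakly transcribed in wild-type cortex. Per gene length, in the authors' RPKM, the highest were Ifi27, a small hydrophobic interferon-inducible protein gene, at 32.9 ± 9.05 (SD, n = 4), the membrane-associated entry blocker Ifitm3 at 14.3 ± 2.02, the RNA-editing enzyme gene Adar at 12.2 ± 4.06 and the nucleotide kinase gene Cmpk2 at 11.2 ± 1.19. Ifitm3, Adar and Cmpk2 did not differ beyond their spread. Ifit3 followed at 5.12 ± 0.463 RPKM. At the other end stood Parp14 at 0.150 ± 0.113, Slfn8 at 0.138 ± 0.142 and Helz2 at 0.108 ± 0.0833 RPKM, which overlapped each other. Oas1b and Oas2, which encode sensors of double-stranded RNA, had 0 reads in the 4 wild-type libraries, which allows up to 0.158 to 0.248 CPM per library at 3 counts, for counting error only. Oas1b had at most 11 reads and Oas2 at most 7 in any library, and the nucleic acid sensor gene Zbp1 at most 20.

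Interferon transcripts were close to absent. Summed over 10 ligand genes, including Ifnb1, Ifng and 4 interferon alpha genes, the level was 0 in 12 of 16 libraries and at most 0.527 CPM in the rest. In the wild-type group all 10 were at 0.

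Of the 4 receptor genes in the segment, 3 rose with the duplication averaged over both backgrounds, where 0.094% of all genes passed. Ifngr2, a chain of the interferon gamma receptor, stood at 77.7, 73.8, 57.9 and 60.2 CPM in the wild-type animals, against 100, 109, 98.6 and 107 with Dp16. In 5xFAD the level was 50.5, 60.7, 55.0 and 50 CPM, and in 5xFAD-Dp16 96.3, 102, 90.5 and 93.5. Every carrier of the duplication was above every non-carrier. Averaged over both backgrounds its level was 1.65-fold higher (log2 difference 0.72, SE 0.087, adjusted p = 0.00107). Ifnar1 stood at 27.0, 30.5, 23.3 and 37.3 CPM in wild-type animals, and the Dp16 animals had 45.7, 46.3, 53.7 and 54.4. The 5xFAD animals had 31.6, 32.1, 25.3 and 34.1 CPM and the 5xFAD-Dp16 animals 45.1, 52.5, 55.7 and 45.9. Carriers and non-carriers did not overlap here either, with a 1.72-fold difference (log2 0.78, SE 0.11, adjusted p = 0.00321).

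Ifnar2, the other type I receptor chain, was 1.76-fold higher (log2 0.81, SE 0.12, adjusted p = 0.00648), at a mean of 14.4 ± 3.52 CPM in wild-type, 22.1 ± 2.33 in Dp16, 12.7 ± 1.05 in 5xFAD and 23.5 ± 3.32 in 5xFAD-Dp16 (SD, n = 4). Its lowest carrier, 5xFAD-Dp16 replicate 3 at 19.2 CPM, was just above its highest non-carrier, wild-type replicate 4 at 19.1. Il10rb did not pass (log2 0.43, SE 0.17, adjusted p = 0.322; 0.27 without Dp16 replicate 1), and its Dp16 animals ranged from 7.82 to 15.8 CPM, overlapping the wild-type range of 5.26 to 8.75. The calls belong to the average over 8 carriers and 8 non-carriers. In Dp16 against wild-type alone, and in 5xFAD-Dp16 against 5xFAD alone, 0 of the 4 receptor genes passed edgeR's test, although 4 and 3 of them were higher at an unadjusted p under 0.05 (2.48% and 11.8% of all genes), with smallest adjusted p-values of 0.136 and 0.0517. Ifngr1, the interferon gamma receptor chain outside the segment, averaged 23.6 ± 2.33 CPM in the wild-type group against 23.8 ± 2.35 for Dp16, and its averaged difference was -0.12 (SE 0.10, adjusted p = 0.525).

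**Figure D1:**
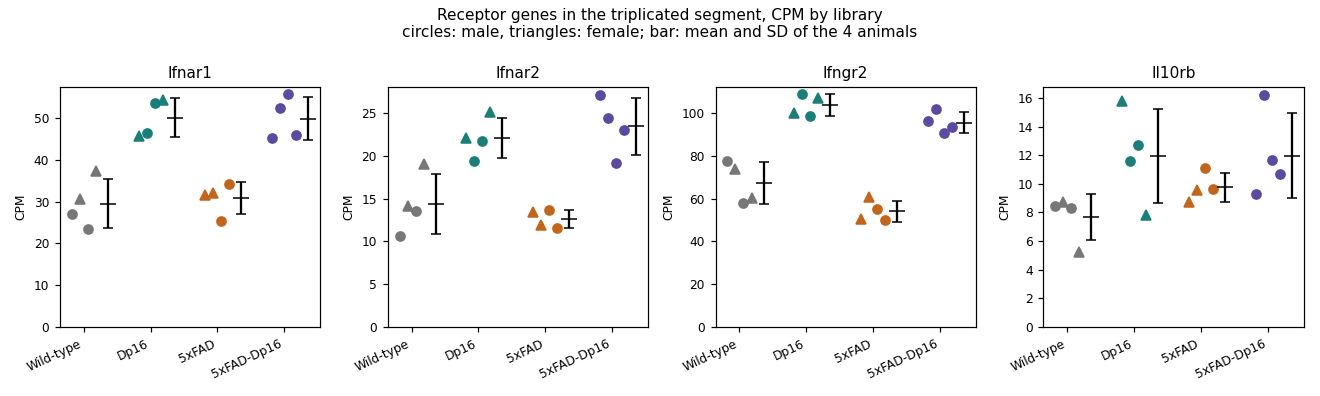
Level of Ifnar1, Ifnar2, Ifngr2 and Il10rb in CPM (y axes from 0) in each of the 16 libraries by genotype; circles are males, triangles females, and bars the mean and SD of 4 animals. For Ifnar1 and Ifngr2 every Dp16 and 5xFAD-Dp16 library lies above every wild-type and 5xFAD library, while Il10rb overlaps. Ifnar2 separates only narrowly, with the lowest carrier at 19.2 CPM and the highest non-carrier at 19.1.

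Between receptor and target, 0 genes of the lists passed. Of 5 kinase and STAT genes, 7 negative regulators and 12 tested genes of upstream nucleic acid sensing, 0 passed edgeR's test in any comparison. For the averaged duplication, at an unadjusted p under 0.05, 1 negative regulator was lower, and among the sensing genes 1 was higher and 1 lower, beside 7.27% higher and 7.76% lower over all genes. Mx2, an antiviral GTPase gene that is itself in the segment, averaged 0.854 ± 0.483 CPM in wild-type animals against 0.939 ± 0.405 with Dp16, with an averaged difference of 0.20 (SE 0.33, adjusted p = 0.76) that ranged from 0.03 without Dp16 replicate 4 to 0.34 without wild-type replicate 2.

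Among the interferon-stimulated genes themselves, 0 of 45 passed in Dp16 against wild-type, where edgeR's test called 0.0176% of all tested genes. Their log2 differences nonetheless leaned upwards: 34 of 45 were above 0, with a median of 0.27, against 50.4% above 0 and a median of 0.0017 over all tested genes. At an unadjusted p under 0.05, 5 were higher and 0 lower, or 5 of 45 beside 2.48% higher and 1.4% lower over all genes. The 5 were Slfn2, Ifi27l2a, Irf7, Irf9 and Lgals3bp. DESeq2 called 1 of the set, Slfn2, with 0.206% of all genes, and without the filter on low counts edgeR called 2, Ifi27l2a and Lgals3bp, with 0.148%. The median fell to 0.15 without Dp16 replicate 3. The part of the lower number of detected genes in the wild-type libraries in this lean, and in that of 5xFAD below, was not tested.

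In 5xFAD against wild-type the lean was larger, and again 0 of 45 passed, beside 0.176% of all genes. Above 0 were 39 of 45, with a median of 0.52, against 52.1% and 0.0189 over all genes. At an unadjusted p under 0.05, 15 of 45 were higher and 0 lower, against 5.22% and 5.53% of all genes. DESeq2 called 5 (Ifi27l2a, Ifit3, Irf7, Irf9 and Slfn2), with 1.37% of all genes. Without the filter edgeR called 4 (Ifi27l2a, Irf7, Bst2 and Lgals3bp), with 0.806%. Without wild-type replicate 2 edgeR called 1, Ifi27l2a, at an adjusted p of 0.0131, beside 24 of 17414 genes. Both this comparison and the one before it rest on the same 4 wild-type libraries.

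In 5xFAD-Dp16 against 5xFAD the set did not lean upwards. Above 0 were 17 of 45, with a median of -0.11, against 49.8% and -0.0018 over all genes. Of the 45, 0 passed, as for all genes (0%). At an unadjusted p under 0.05, 1 was higher and 4 lower, against 11.8% and 12% of all genes. Without 5xFAD replicate 3, 1 was higher and 0 lower, against 3.87% and 2.76%. Without 5xFAD replicate 2, 1 was higher and 2 lower, against 11.2% and 11.9%. Without 5xFAD-Dp16 replicate 1 these were 1 and 2, against 5.92% and 6.12%. Without 5xFAD-Dp16 replicate 3 they were 2 and 2, against 8.52% and 7.85%, and without its replicate 4 they were 1 and 2, against 11.4% and 11.3%. Leaving out each library moved the median from -0.23, without 5xFAD-Dp16 replicate 1, to -0.05, without its replicate 3, and without the sex term it was -0.22, with 11 of 45 above 0 against 49.1% of all genes. DESeq2 called 1, Adar, with 4.59% of all genes, and edgeR without the filter called the same gene, with 7.6%. In this comparison DESeq2 gave an adjusted p-value to only 10418 of the 17019 genes, so its 4.59% includes genes that could not be called. How many of the 45 were among those was not counted. The groups of this comparison share no library with those of Dp16 against wild-type. The estimates are still linked, because the sex term was fitted over all 16 libraries and the 5xFAD-Dp16 animals were all male. Of the 45, 14 were above 0 in both comparisons and 8 below 0 in both. Another 20 were above 0 in Dp16 and below 0 in 5xFAD-Dp16, and 3 the reverse. The shares of these patterns over all genes were not computed.

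In 5xFAD-Dp16 against Dp16, 0 of 45 passed, beside 0.0176% of all genes, and 0 passed by DESeq2, beside 0.147%. The median was 0.20, with 31 above 0, against 0.0133 and 51.6% over all genes, and at an unadjusted p under 0.05, 0 were higher and 2 lower, against 2.67% and 2.63%. Without Dp16 replicate 3 the median was 0.30, and 4 were higher and 1 lower, against 8.54% and 7.49%. Without 5xFAD-Dp16 replicate 1 the median was 0.08, with 0 higher and 0 lower, against 1.4% and 1.37%. Without the sex term the median was 0.08. Averaged over both backgrounds, the duplication gave a median of 0.04 with 26 of 45 above 0, against 0.0146 and 52.1%. Here 0 passed, beside 0.094% of all genes, and 0 by DESeq2, beside 0.77%; without the filter edgeR called 2, Adar and Lgals3bp, beside 3.76%. At an unadjusted p under 0.05, 1 was higher and 1 lower, against 7.27% and 7.76%, and leaving out each library gave 0 to 3 higher and 0 to 1 lower, against 3.62% to 12.7% and 2.62% to 12.3%.

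The test of whether the duplication's difference depended on the transgenes, the interaction, called 0 of 45 and 0% of all genes. At an unadjusted p under 0.05, 1 was higher and 7 lower, against 4.58% and 4.77% of all genes, and 11 of 45 were above 0 with a median of -0.36, against 49.2% and -0.0107. DESeq2 called 1, Slfn2, beside 0.123% of all genes, and edgeR without the filter called 1, Ifi27l2a, beside 1.19%. The median was -0.15 without Dp16 replicate 3 and -0.54 without 5xFAD-Dp16 replicate 2. Without 5xFAD replicate 3 0 were higher and 4 lower, against 2.09% and 2.03% of all genes, and without wild-type replicate 4 the same numbers were found, against 1.91% and 3.1%. Among males alone the median was -0.31, with 12 of 45 above 0. In that fit 3 of 45 had an unadjusted p under 0.05, 1 of them higher, beside 2092 of 17567 genes, 1059 of them higher.

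**Figure D2:**
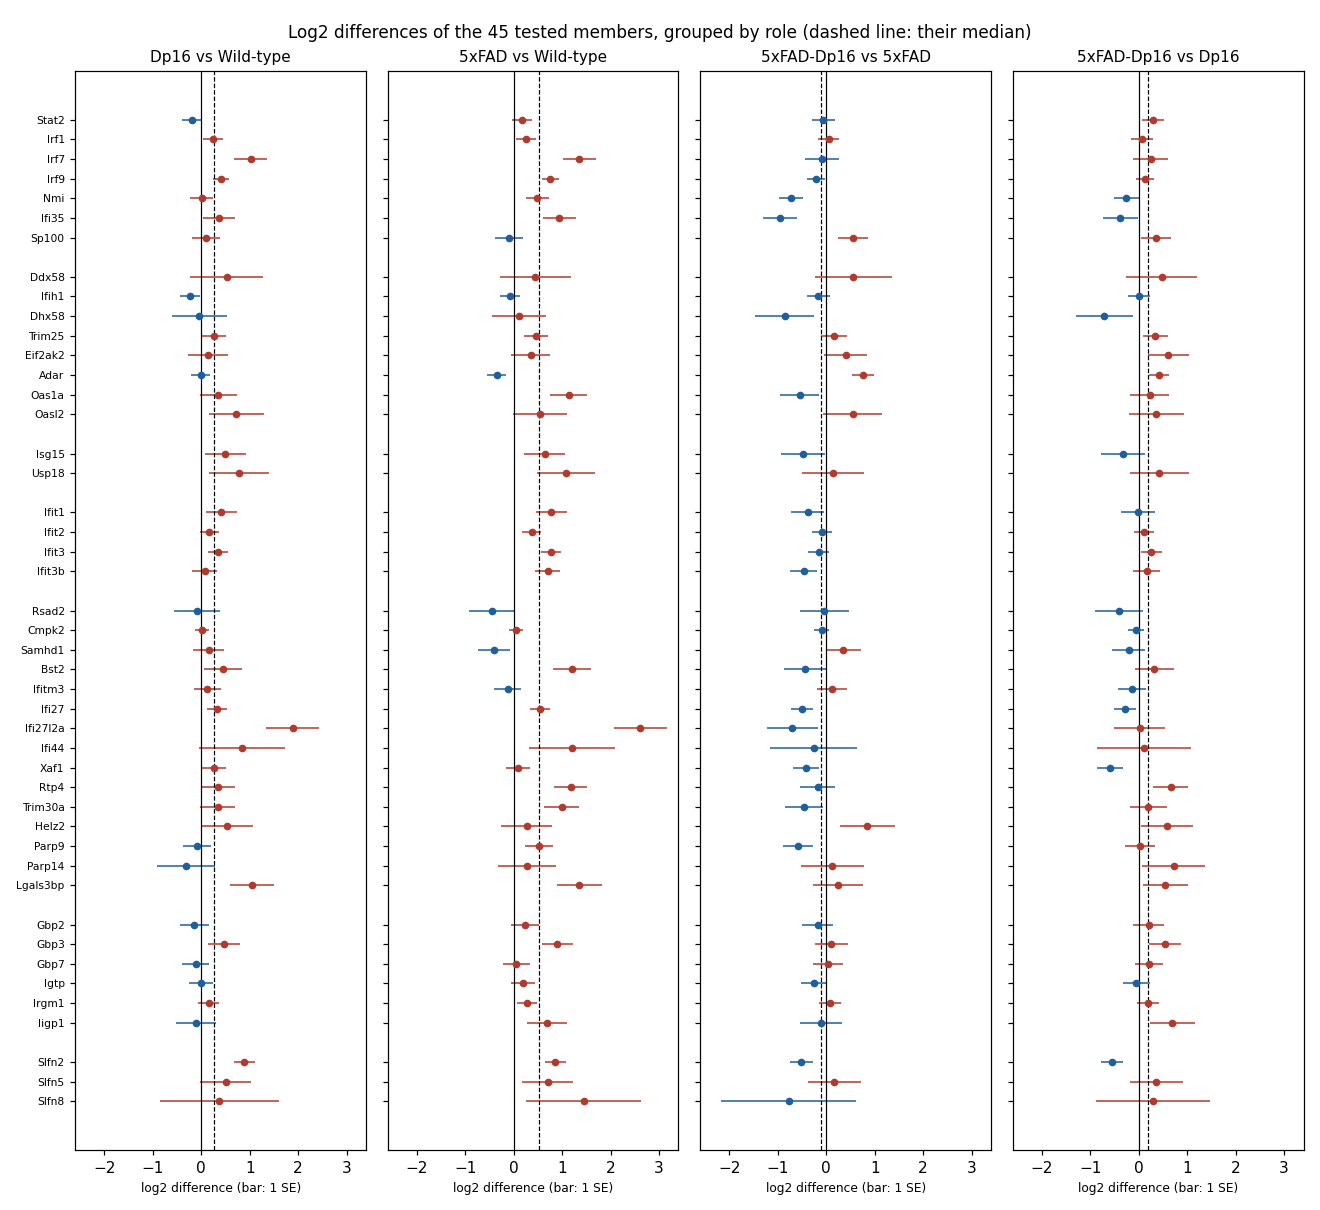
Log2 differences of the 45 tested interferon-stimulated genes in 4 comparisons (x axes), ordered by role; points are estimates, red above 0 and blue below, bars are 1 SE, and the dashed line is the median of the 45. The medians are 0.27 for Dp16 and 0.52 for 5xFAD against wild-type, -0.11 for 5xFAD-Dp16 against 5xFAD and 0.20 for 5xFAD-Dp16 against Dp16.

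Of the 7 transcription factors and adaptors, 6 were above 0 in Dp16 (median log2 difference 0.24) and 6 in 5xFAD (0.48), and 2 in 5xFAD-Dp16 against 5xFAD (-0.09). Irf7, the factor that amplifies type I interferon production (chr7:141262706-141266481), had 1.67, 0.661, 2.12 and 2.79 CPM in the wild-type animals and 4.61, 2.51, 4.20 and 3.76 CPM with Dp16. In 5xFAD it stood at 6.79, 4.80, 3.63 and 3.99 CPM, and in 5xFAD-Dp16 at 4.21, 4.38, 3.6 and 3.85. The 5xFAD animals were all above the wild-type animals, while wild-type replicate 4 exceeded the lowest Dp16 animal. The differences were 1.02 (SE 0.34, adjusted p = 0.944) for Dp16 and 1.35 (SE 0.34, adjusted p = 0.181) for 5xFAD, and averaged over backgrounds the duplication's was 0.46 (SE 0.24, adjusted p = 0.353).

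Irf9, the DNA-binding part of the STAT complex (chr14:55603571-55610030), stood at 7.20, 8.84, 7.57 and 6.52 CPM in the 4 wild-type animals, with 10.2, 10.3, 9.32 and 10.1 CPM in the Dp16 group. Values were 14.7, 14.7, 11.7 and 10.1 CPM in 5xFAD, then 11.9, 10, 10.4 and 8.70 in 5xFAD-Dp16. Neither the Dp16 nor the 5xFAD group overlapped wild-type. Its differences were 0.41 in Dp16 (SE 0.17, adjusted p = 1) and 0.76 in 5xFAD (SE 0.17, adjusted p = 0.118). Irf9 was thus among 4 of 45 genes whose Dp16 animals all lay above the wild-type animals, with Slfn2, Ifi27l2a and Lgals3bp, against 1.44% of all tested genes, and 0 lay wholly below, against 0.852%. For 5xFAD 9 lay wholly above, against 2.8%, and 0 wholly below, against 2.68%.

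Nmi and Ifi35 encode partner proteins that bind STATs and interferon regulatory factors. Ifi35 (chr11:101448407-101458698) stood at 4.82, 3.55, 2.73 and 2.00 CPM in the wild-type animals, against 6.25, 5.08, 2.78 and 2.67 with Dp16. In 5xFAD the level was 6.33, 5.49, 8.18 and 5.00 CPM, and in 5xFAD-Dp16 2.58, 3.27, 4.49 and 3.14. The 4 5xFAD animals were above all wild-type and all 5xFAD-Dp16 animals. The difference of 5xFAD-Dp16 from 5xFAD was -0.96 (SE 0.35, adjusted p = 0.158) and the interaction -1.32 (SE 0.49, adjusted p = 0.522). Nmi stood at 9.23, 5.95, 6.6 and 6.05 CPM in wild-type animals, and the Dp16 animals had 6.88, 5.93, 7.70 and 7.07. The 5xFAD animals had 7.64, 8.23, 14.1 and 9.16 CPM and the 5xFAD-Dp16 animals 4.68, 7.48, 4.96 and 8.64. Its groups overlapped, with differences of -0.73 against 5xFAD (SE 0.25, adjusted p = 0.155) and -0.36 averaged (SE 0.17, adjusted p = 0.331). Stat2, Irf1 and Sp100, a nuclear body gene, had differences of -0.19, 0.24 and 0.10 in Dp16 and of 0.17, 0.26 and -0.09 in 5xFAD.

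Of 8 tested genes for sensors of foreign nucleic acid, 5 were above 0 in Dp16 (median 0.20) and 6 in 5xFAD (0.40). The helicase gene Ifih1, whose product senses long double-stranded RNA, had a difference of -0.23 in Dp16 and -0.07 in 5xFAD, and Ddx58, whose product is the sensor RIG-I, 0.53 (SE 0.75) and 0.44 (SE 0.73). Oas1a, which makes the activator of RNase L, averaged 0.888 ± 0.291 CPM in wild-type, 1.12 ± 0.353 in Dp16, 1.92 ± 0.455 in 5xFAD and 1.14 ± 0.101 in 5xFAD-Dp16 (SD, n = 4), and the 5xFAD animals were all above those of wild-type and 5xFAD-Dp16. It rests on 12 to 38 reads per library in those groups. Reads of Oas1a and its close copy Oas1b may be shared in the counting.

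Adar, which edits adenosine to inosine in double-stranded RNA (chr3:89715022-89753446), was among the 17 genes above 0 in 5xFAD-Dp16 against 5xFAD. It stood at 66.3, 53.2, 66.5 and 105 CPM in the 4 wild-type animals, with 76.4, 68.2, 75.4 and 66.5 CPM in the Dp16 group. Values were 69.0, 68.9, 41.2 and 51.1 CPM in 5xFAD, then 118, 74.6, 83.6 and 72.6 in 5xFAD-Dp16. All 5xFAD-Dp16 animals were above the 5xFAD animals, as the only gene of the 45 in that position, against 5.59% of all genes, while Dhx58, Ifi35, Oas1a and Parp9 lay wholly below, against 5.87%. The difference was 0.76 (SE 0.22, adjusted p = 0.155), with 0.42 against Dp16 (SE 0.21, adjusted p = 0.758; 0.24 without 5xFAD-Dp16 replicate 1) and 0.37 averaged over backgrounds (SE 0.15, adjusted p = 0.322). The libraries differed in a trend of level with gene length. The 2 libraries highest in Adar, 5xFAD-Dp16 replicate 1 and wild-type replicate 4, had the highest rank correlation with length (0.451 and 0.435). The library lowest in Adar, 5xFAD replicate 3, had the lowest (-0.462). What part the trend has in the Adar levels was not tested. With that trend removed the difference from 5xFAD was 0.47 (adjusted p = 0.128) and from Dp16 0.21.

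The conjugation system of Isg15, a ubiquitin-like protein, and Usp18, the protease that removes it, gave differences of 0.49 (SE 0.42) and 0.78 (SE 0.62) in Dp16 and of 0.64 (SE 0.42) and 1.08 (SE 0.59) in 5xFAD. Isg15, whose promoter holds 3 overlapping response element cores, stood at 2.26, 2.73, 4.42 and 1.79 CPM in the wild-type animals, against 3.62, 2.22, 4.56 and 5.24 with Dp16. In 5xFAD the level was 4.22, 4.63, 3.04 and 5.51 CPM, and in 5xFAD-Dp16 3.01, 5.65, 2.87 and 1.10. All genotypes overlapped. In 5xFAD-Dp16 against 5xFAD Isg15 differed by -0.48 (SE 0.45).

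The Ifit genes, a cluster on chromosome 19 whose products bind foreign 5′ ends of RNA, leaned together. All 4 were above 0 in Dp16 (median 0.25) and in 5xFAD (0.73), and all 4 were below 0 in 5xFAD-Dp16 against 5xFAD (-0.27). Ifit3 (chr19:34583531-34588731) stood at 9.11, 10.2, 7.81 and 8.83 CPM in wild-type animals, and the Dp16 animals had 9.58, 8.56, 12.4 and 14.9. The 5xFAD animals had 20.8, 13, 14.6 and 12.8 CPM and the 5xFAD-Dp16 animals 11.8, 16.3, 11.1 and 11. The 5xFAD and 5xFAD-Dp16 animals were all above wild-type, and Dp16 overlapped it. Its difference was 0.34 (SE 0.21) in Dp16, 0.76 (SE 0.21) in 5xFAD and -0.16 (SE 0.22) in 5xFAD-Dp16 against 5xFAD. Ifit3b, with the same promoter sites, gave 0.07 (SE 0.26), 0.71 (SE 0.26) and -0.47 (SE 0.28). The pair is similar in sequence, and how reads matching both were counted is not given in the sources used here.

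Of the 15 other antiviral effectors, 12 were above 0 in Dp16 (median 0.32), 12 in 5xFAD (0.52) and 5 in 5xFAD-Dp16 against 5xFAD (-0.18). Ifi27l2a, a small interferon-induced membrane protein gene at chr12:103442167-103443680, had the largest differences of the 45 in both comparisons with wild-type. It stood at 0.476, 2.15, 0.666 and 0.316 CPM in the 4 wild-type animals, with 2.27, 3.14, 2.68 and 4.40 CPM in the Dp16 group. Values were 4.68, 5.83, 7.65 and 2.42 CPM in 5xFAD, then 2.87, 4.87, 1.31 and 2.15 in 5xFAD-Dp16. Dp16 and 5xFAD animals were all above wild-type, where replicate 2 was higher than the rest. The differences were 1.89 (SE 0.54, adjusted p = 0.674) and 2.61 (SE 0.55, adjusted p = 0.0856), and the interaction was -2.59 (SE 0.75, adjusted p = 0.522). Without wild-type replicate 2 these were 2.68, 3.39 and -3.55, of which the 5xFAD difference passed, as above. The wild-type values rest on 6 to 26 reads.

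Its chromosomal neighbour Ifi27, the most abundant of the set per gene length, stood at 39.2, 42.4, 34.6 and 19.9 CPM in the wild-type animals, against 42.0, 39.8, 41.9 and 45 with Dp16. In 5xFAD the level was 43.3, 46.5, 67.3 and 39.6 CPM, and in 5xFAD-Dp16 38.1, 44.8, 32.2 and 30.6. The genotypes overlapped and the interaction was -0.82 (SE 0.31, adjusted p = 0.522). Lgals3bp, which encodes a secreted galectin-binding glycoprotein, stood at 8.57, 1.73, 8.36 and 11 CPM in wild-type animals, and the Dp16 animals had 14.8, 12.8, 21.6 and 12.4. The 5xFAD animals had 34.0, 24.7, 8.38 and 13.2 CPM and the 5xFAD-Dp16 animals 28.2, 26.0, 16.7 and 13. The Dp16 and 5xFAD-Dp16 animals were all above wild-type, while the 5xFAD group overlapped it through a male at 8.38 CPM. Averaged over backgrounds it differed by 0.64 (SE 0.34, adjusted p = 0.356), or 0.42 without 5xFAD replicate 3. Among males alone it differed by 1.00 (adjusted p = 0.0271), and it and Adar passed there, beside 14.2% of all genes. The 5xFAD males were replicates 3 and 4, and replicate 3 had the lowest median correlation of the libraries (0.956).

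Xaf1, which encodes a protein that promotes cell death, stood at 8.27, 3.63, 6.66 and 5.68 CPM in the 4 wild-type animals, with 8.80, 7.07, 6.33 and 6.18 CPM in the Dp16 group. Values were 6.79, 4.12, 8.84 and 5.96 CPM in 5xFAD, then 5.16, 5.82, 4.28 and 5.84 in 5xFAD-Dp16. The 5xFAD-Dp16 animals lay wholly below Dp16, as the only gene of the 45, against 2.61% of all genes, and 0 lay wholly above, against 2.82%. The difference was -0.60 (SE 0.28, adjusted p = 0.758). Rtp4, a chaperone gene of chromosome 16 outside the segment, stood at 0.893, 4.13, 3.21 and 3.68 CPM in the wild-type animals, against 3.34, 2.34, 3.95 and 4.95 with Dp16. In 5xFAD the level was 8.83, 6.46, 4.95 and 5.96 CPM, and in 5xFAD-Dp16 5.31, 6.48, 3.29 and 3.52. It differed by 0.66 between 5xFAD-Dp16 and Dp16 (SE 0.36, adjusted p = 0.758), with overlapping animals. Cmpk2 had differences of 0.01 (SE 0.15) in Dp16 and 0.05 (SE 0.15) in 5xFAD, and its neighbour Rsad2, whose product makes an antiviral nucleotide, had -0.09 (SE 0.47) and -0.46 (SE 0.48).

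The interferon-inducible GTPases, which attack vacuoles of parasites and are driven chiefly by interferon gamma, did not lean upwards in Dp16. Of 6, 2 were above 0 (median -0.06), whereas 6 of 6 were above 0 in 5xFAD (0.25) and 3 of 6 in 5xFAD-Dp16 against 5xFAD (-0.04). Gbp3 had the largest difference of the group, 0.46 (SE 0.32) in Dp16 and 0.89 (SE 0.32) in 5xFAD. Irgm1 gave 0.16 (SE 0.21) in Dp16 and Gbp7 -0.12 (SE 0.28). Whether the GTPases differ from the rest of the set was not tested.

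The 3 Schlafen genes, a cluster on chromosome 11 that encodes growth-restraining and antiviral proteins, were above 0 in Dp16 (median 0.50) and in 5xFAD (0.85). Slfn2 (chr11:83065112-83070678) had the smallest p of the 45 in Dp16. It stood at 3.10, 4.29, 4.30 and 3.42 CPM in wild-type animals, and the Dp16 animals had 7.38, 7.07, 7.14 and 6.28. The 5xFAD animals had 6.72, 7.20, 6.27 and 7.03 CPM and the 5xFAD-Dp16 animals 3.59, 6.54, 4.60 and 4.24. The lowest Dp16 and 5xFAD animals were above the highest wild-type animal. Of the 5xFAD-Dp16 animals 2 were within the wild-type range, and replicate 2 was within the Dp16 range.

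For Slfn2 the difference was 0.89 in Dp16 (1.85-fold, SE 0.22, adjusted p = 0.405) and 0.85 in 5xFAD (1.81-fold, SE 0.22, adjusted p = 0.181). In 5xFAD-Dp16 it was -0.51 against 5xFAD (SE 0.23, adjusted p = 0.195) and -0.55 against Dp16 (SE 0.23, adjusted p = 0.758). The interaction was -1.40 (SE 0.31), the smallest p of the 45, and did not pass after adjustment (adjusted p = 0.522), whereas DESeq2 called it. Slfn5 and Slfn8 had differences of 0.50 (SE 0.53) and 0.38 (SE 1.22) in Dp16.

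**Figure D3:**
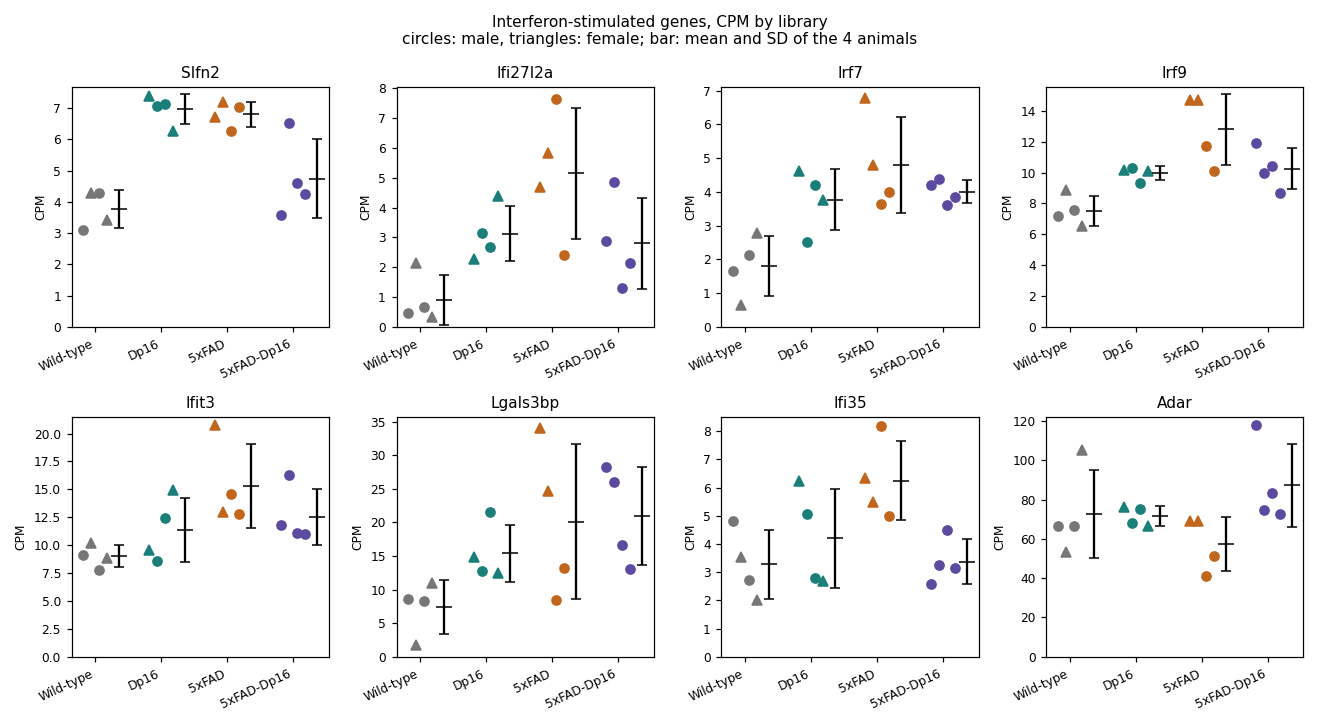
Level in CPM (y axes from 0) of 8 interferon-stimulated genes in the 16 libraries by genotype; circles are males, triangles females, and bars the mean and SD of 4 animals. Slfn2 and Irf9 show Dp16 and 5xFAD animals all above wild-type, whereas Adar is higher in all 5xFAD-Dp16 animals than in the 5xFAD animals.

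As a summary per animal, the mean over the 45 genes of the log2 level minus the wild-type mean was -0.13, 0.01, -0.01 and 0.13 in wild-type and 0.36, 0.17, 0.53 and 0.28 in Dp16. It was 0.95, 0.63, 0.32 and 0.44 in 5xFAD and 0.56, 0.60, 0.08 and 0.14 in 5xFAD-Dp16. Animals of the last group, all male, were split. Replicates 1 and 2 were within the 5xFAD range but above the 5xFAD males, replicates 3 and 4 of 5xFAD. Replicates 3 and 4 of 5xFAD-Dp16 were near the highest wild-type value and below the lowest Dp16 value. The mean of the 5xFAD-Dp16 group was 0.347, against 0.338 in Dp16. The 2 highest values of 5xFAD were its females, whose mean was 0.79 against 0.38 for its males. Wild-type females averaged 0.07 and males -0.07, and Dp16 females 0.32 and males 0.35.

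Since 5xFAD-Dp16 animals were all male, the comparison was repeated among males, with 2 animals in the other groups. The median of 5xFAD-Dp16 against 5xFAD was then -0.02, with 22 of 45 above 0, and that of 5xFAD against wild-type was 0.34. In the male fit of 5xFAD-Dp16 against 5xFAD, 22.5% of all genes passed, and 2 of the 45, Adar and Lgals3bp. Of the 2 5xFAD males in that fit, replicate 3 had the lowest median correlation (0.956) and the lowest rank correlation with gene length (-0.462). A model with a separate sex difference for 5xFAD called 0 of 45 for that term and 0% of all genes. At an unadjusted p under 0.05 4 of 45 were higher in 5xFAD females beyond the sex difference of wild-type and Dp16, against 4.88% of all genes. In the same term 1 was lower, and the share of lower genes over all genes was not computed. The 4 were Stat2, Ifitm3, Bst2 and Lgals3bp, at 0.90 to 1.80, with an adjusted p of 0.404 each.

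Microglial markers were highest in 5xFAD. The summed level of 13 microglial genes ranged from 558 to 630 CPM in the wild-type animals, from 563 to 713 with Dp16 and from 609 to 714 in 5xFAD-Dp16, against 730 to 1170 in 5xFAD, where the 2 females were highest. In 5xFAD-Dp16 animals 1 to 4 the sums were 714, 684, 697 and 609 CPM, beside means of the set of 0.56, 0.60, 0.08 and 0.14. Of the 13, 3 passed as higher in 5xFAD than wild-type (Trem2, Tyrobp and C1qb). Of 8 genes of plaque-associated microglia, 5 passed there and 2, Cst7 and Clec7a, in 5xFAD-Dp16 against Dp16. Their summed levels were 177 to 255 CPM in wild-type, 209 to 225 in Dp16, 352 to 505 in 5xFAD and 228 to 287 in 5xFAD-Dp16. In 5xFAD-Dp16 against 5xFAD 0 genes of either list passed. At an unadjusted p under 0.05, 6 of 13 and 5 of 8 were lower there and 0 higher, beside 12% and 11.8% of all genes. In Dp16 against wild-type 0 microglial markers of either list passed edgeR's test, and at an unadjusted p under 0.05 1 plaque-associated gene was higher. The part of microglial number or state in the levels of the interferon-stimulated genes was not tested.

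Markers of other cell types also differed between the groups. All 8 endothelial genes had a log2 difference below 0 in 5xFAD against wild-type (median -0.76) and above 0 in 5xFAD-Dp16 against 5xFAD (0.62), with summed levels of 138 to 182 CPM in wild-type, 121 to 190 in Dp16, 80.8 to 116 in 5xFAD and 107 to 182 in 5xFAD-Dp16. Of the 8, 0 passed edgeR's test in either comparison, and at an unadjusted p under 0.05 4 were lower in the first, beside 5.53% of all genes, and 2 higher in the second, beside 11.8%. The 6 oligodendrocyte genes were below 0 in 5xFAD (median -0.44), with 0 passing and 4 lower at an unadjusted p under 0.05. Among 8 astrocyte genes Gfap, an intermediate filament gene of reactive astrocytes, passed as higher in 5xFAD. The astrocyte list did not lean: 4 were above 0 and 4 below, with a median of 0.03. At an unadjusted p under 0.05, 2 of them were higher and 1 lower, beside 5.22% and 5.53% of all genes. Of 6 excitatory neuron genes, 4 were higher in 5xFAD-Dp16 than 5xFAD at an unadjusted p under 0.05, and 0 passed. The part of these cell types in the levels of the set was not tested.

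Choroid plexus markers stood apart in 2 libraries. The summed level of 6 genes was 118 CPM in Dp16 replicate 3 and 702 CPM in 5xFAD-Dp16 replicate 2, against 15.8 to 35.5 CPM elsewhere. These libraries also had the highest mean level of the set in their groups. For 5xFAD-Dp16 the margin was small: replicate 1, with 20.4 CPM of the markers, had a mean of 0.56 against 0.60 in replicate 2. Without Dp16 replicate 3 the Dp16 median was 0.15, and without 5xFAD-Dp16 replicate 2 the median against 5xFAD was -0.20. The part of choroid plexus tissue was not tested. Lymphocyte markers were near 0, with a summed 0.0606 to 2.44 CPM over 7 genes and Ms4a1 at 0 in all wild-type, Dp16 and 5xFAD-Dp16 libraries.

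**Figure D4:**
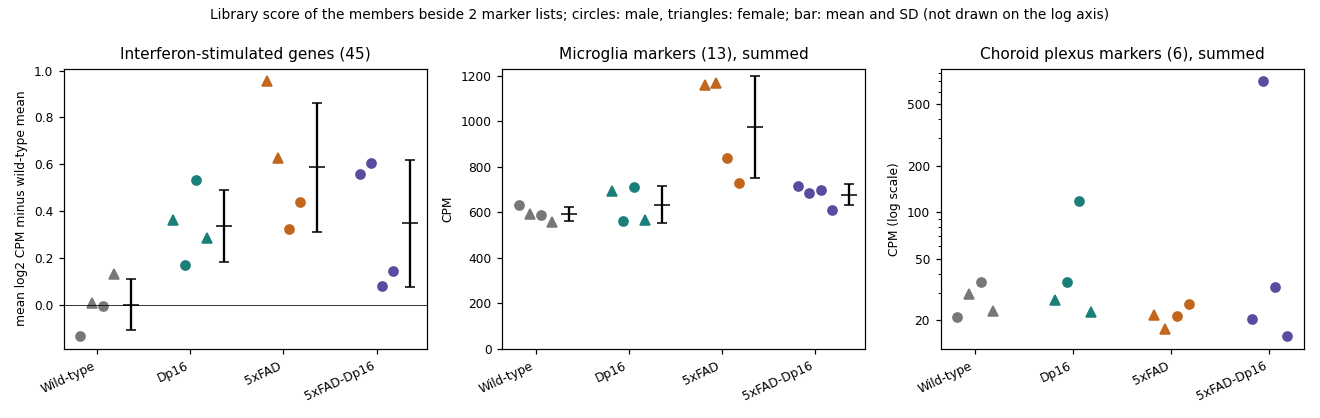
Mean log2 level of the 45 tested genes relative to wild-type (left, y axis in log2 units), summed CPM of 13 microglial markers (middle, axis from 0) and of 6 choroid plexus markers (right, log axis) in each library; circles are males, triangles females, bars the mean and SD of 4 animals. The 5xFAD females are highest in the first 2 panels, and Dp16 replicate 3 and 5xFAD-Dp16 replicate 2 stand apart in the third.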

How the data were processed

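The authors deposited raw read counts per gene, as whole numbers without normalization, and RPKM values, which are counts per gene length and library total; 100% of non-zero RPKM values fit that relation within 0.1%. HISAT2 2.1.0, SAMtools 1.5, HTSeq 0.6.1 and FastQC 0.11.5 are named, with GRCm38, in the submitters' processing notes. Libraries were strand-specific per the labels' protocols; the strand setting and the handling of multiply matching reads in counting are not given in the sources used here. Coordinates came from Gencode M21, promoters from RefSeq.

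Genes were kept by filterByExpr, which left 17019, scaled by TMM and tested with edgeR 4.0.16 in R 4.3.3 by the robust two-sided quasi-likelihood test, with a mean per genotype and an additive sex term over 16 libraries and Benjamini-Hochberg adjustment. CPM uses the TMM-scaled library. The script was tested on simulated data. For Dp16 against wild-type it recovered 18% of 50 genes changed 1.5-fold and 54% of 50 changed 2-fold. For the averaged duplication these shares were 42% and 72%. A gene without a call may therefore still differ by such amounts. DESeq2 1.42.0, no filter, no sex term, males only, removal of length trends, the sample number as a block and leaving out each library were alternatives. P-values measure the spread between animals.

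The members and gene lists were chosen with earlier results of these data known, and 3 pathway and marker genes of those lists are not reported here. Genes given with SE and adjusted p are those past the threshold, or the 4 with the smallest p in each comparison, besides 6 receptor and pathway genes taken by role; other members were picked as examples after their values were seen. 2 alternatives, leaving out the 2 libraries of lowest correlation and a separate sex term in 5xFAD, were added after the data were seen.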

Additional observations from a re-analysis of the deposited data

Results flagged for a closer look

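A library stood far from the other 3 of its group, by Dixon's criterion, in 9 of 204 groups examined (51 genes in 4 genotypes); chance gives about 1 in 20. In wild-type these were Dhx58 in replicate 2 (6.19 CPM, the others 1.10 to 1.57), Oas1a in replicate 2 (1.32, the others 0.714 to 0.789), Parp9 in replicate 4 (2.42, the others 6.90 to 7.19) and Il10rb in replicate 4 (5.26, the others 8.30 to 8.75). In 5xFAD they were Ifit2 in replicate 3 (9.83 CPM, the others 13.6 to 13.8) and Mx2 in replicate 1 (1.65, the others 1.29 to 1.32). In 5xFAD-Dp16 they were Eif2ak2 in replicate 4 (3.30 CPM, the others 4.49 to 4.65), Ifit3 in replicate 2 (16.3, the others 11 to 11.8) and Iigp1 in replicate 2 (6.04, the others 1.82 to 1.96). Replicate 2 of 5xFAD-Dp16 is the library with the high choroid plexus markers. In Dp16 there was none of these 9.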

How the results depend on the processing

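The median difference of the set moved by less than 0.216, the spread of the per-animal mean, in 105 of 105 alternatives. That bound is wider than the medians for 5xFAD-Dp16 against 5xFAD, for 5xFAD-Dp16 against Dp16 and for the averaged duplication. For these it cannot tell whether a difference was kept. Leaving out each library gave 0.15 to 0.30 for Dp16 and 0.41 to 0.62 for 5xFAD against wild-type, -0.23 to -0.05 for 5xFAD-Dp16 against 5xFAD, 0.08 to 0.30 against Dp16, 0.01 to 0.10 averaged and -0.54 to -0.15 for the interaction. Calls among the 45 depended on the test. For Dp16 against wild-type DESeq2 called 1 and the fit without the filter 2. For 5xFAD against wild-type the counts were 5 with DESeq2, 4 without the filter, 1 with length trends removed and 0 to 1 leaving out each library. For 5xFAD-Dp16 against 5xFAD they were 1, 1 and, in males, 2. For the averaged duplication they were 2 without the filter and 2 in males, and for the interaction 1 with DESeq2 and 1 without the filter. Over all genes, Dp16 against wild-type called 3 in the reported fit, 35 with DESeq2, 43 without the filter, 0 in males, 16 with length trends removed, 0 with the replicate block, 1 without the 2 libraries of lowest correlation and 0 to 2 leaving out each library. For 5xFAD against wild-type these were 30 as reported, 234 with DESeq2, 235 without the filter, 5 in males, 36 with length trends removed, 18 without the 2 libraries and 16 to 26 leaving out each. For 5xFAD-Dp16 against 5xFAD they were 0 as reported, 781 with DESeq2, 2215 without the filter, 16 without the sex term, 3956 in males, 4 with length trends removed and 0 to 3 leaving out each, and against Dp16 3, 25, 45 and 2 to 4. For the averaged duplication they were 16 as reported, 131, 1097, 2488 in males, 35 with length trends removed, 9 with the replicate block and 10 to 43 leaving out each. For the interaction they were 0, 21, 346 and 0 to 1. The cause of these changes was not tested. The same sample number does not pair animals: same-number libraries correlated at -0.365 to 0.316 after removing group means, and 1 of 16 correlated best with its own number. With the replicate block 0 of the 45 passed in any comparison, and Ifnar2 had an adjusted p of 0.0537. Depth limits Oas1b, Oas2 and Zbp1.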
